A study of Rattus norvegicus with 6 samples.

Results

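Kruppel-like factors (Klf) are the subject here, 10 genes of the rat transcriptome that were picked by symbol: Klf2, Klf3, Klf4, Klf5, Klf6, Klf9, Klf10, Klf11, Klf13 and Klf15. They were 10 of the 28293 genes left in the expression table after rows with one symbol were summed, and each of the 10 had a row. Rows were taken by gene name alone. Total RNA of the heart muscle was sequenced in 2 groups of 3, sham-operated rats and rats with ischemia and reperfusion (I/R). The rats of both groups were male and of WT genotype. In the I/R group a ligature closed the left anterior descending artery for 30 min, and the heart was taken 6 h after its release. Strain, age and the region of the ventricle sampled are not given in the sources used here, and the sham titles carry the same times as the I/R titles. The labels number the samples without saying outright that each is a separate animal; each is called a rat here, and p-values measure the spread between these samples.

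Kruppel-like factors are transcription factors that bind GC-rich and CACCC-like DNA through zinc fingers at the carboxyl end. The DNA-binding end is much alike across the family, while the amino-terminal parts differ and recruit acetyltransferases, the CtBP repressors or the Sin3 and histone deacetylase complex. Several members are early response genes. In the heart and its vessels, Klf2 and Klf4 are known for the quiet state of endothelium under flow, Klf15 for fuel use in the cardiomyocyte and restraint of hypertrophic genes, Klf5 for smooth muscle and fibroblast activation, and Klf9 as a target of the glucocorticoid receptor.

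Promoter sequence was at hand in RefSeq (GRCr8) for 7 of the 10 members, not for Klf2, Klf10 or Klf13. The windows of Klf5, Klf6 and Klf9 lay before the edge of the annotated gene, while those of Klf3, Klf4, Klf11 and Klf15 belong to a start inside it. The 250 bases before the start of Klf6, the member with the lowest adjusted p, and of Klf9, whose I/R values also all lay above sham, are shown because CCAAT boxes recur in both. Capitals mark CCAAT or its reverse complement ATTGG, and both are written 5′ to 3′ on the strand of the gene. The Klf6 window is chr17:69458479-69458728 on the minus strand and the Klf9 window is chr1:230126396-230126645 on the plus strand.
Klf6: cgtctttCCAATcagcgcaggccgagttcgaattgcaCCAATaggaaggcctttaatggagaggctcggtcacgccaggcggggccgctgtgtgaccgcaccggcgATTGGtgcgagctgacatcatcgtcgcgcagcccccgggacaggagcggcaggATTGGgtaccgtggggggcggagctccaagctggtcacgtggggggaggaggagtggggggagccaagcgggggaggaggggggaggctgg
Klf9: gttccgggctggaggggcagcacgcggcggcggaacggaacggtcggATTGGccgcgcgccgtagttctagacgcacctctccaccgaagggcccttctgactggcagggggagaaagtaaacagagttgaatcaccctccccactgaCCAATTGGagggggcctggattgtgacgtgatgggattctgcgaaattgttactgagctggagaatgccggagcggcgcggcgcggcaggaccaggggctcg
Klf6 held 4 matches and Klf9 held 3, and Klf5 also held 3. In Klf9, 2 of the 3 overlap in the stretch CCAATTGG, which reads as a match on either strand. On both strands, 34.0% of the 33469 promoters of that length held at least 1. The share with 3 or 4 was not counted. Klf3, Klf11 and Klf15 held 1 match each and Klf4 none. Klf4 was the member with the TATA box letters TATAAA, with 2 matches against 12.9% of all promoters with any. The family's own kind of site was unevenly spread: GGGCGG occurred 7 times in Klf11, once in Klf6 and in no other of these windows (30.5% of all promoters), and CACCC occurred 4 times in Klf3, 2 times in Klf5 and once each in Klf9 and Klf15 (49.2% of all promoters). For Klf3, Klf4, Klf11 and Klf15 these counts are of windows whose start lies inside the annotated gene. A match is a run of letters and not a shown binding site.

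Expression was read as FPKM, fragment counts scaled by gene length and library size, so levels can be set side by side between genes. The steps between low FPKM values gave back whole fragments, and the implied library totals, in units of 1e6 fragments, were 42.2 to 49.8 in sham and 36.8 to 39.5 in I/R. The 13 mRNAs made in mitochondria took 80.1% to 86.2% of all FPKM in sham and 61.8% to 71.5% in I/R. All other genes therefore shared a larger remainder in I/R, and the median log2 fold change over the 10942 genes that reached a mean of 0.5 FPKM was 0.29. With every sample rescaled over the genes other than those 13, the same median was -0.46. Only those 13 were left out, so any other transcripts of mitochondria stayed in that sum. Each fold change below is on the log2(FPKM + 0.1) scale, I/R minus sham, with its standard error (SE) and an adjusted p from limma over all genes tested. In bulk tissue, fewer cells of a type and less RNA per cell cannot be told apart.

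Klf6 and Klf13 were higher after I/R, with means about doubled, and no member was lower. That is 2 of the 9 members tested (22.2%), while 25.5% of all genes tested were higher and 7.36% were lower (32.9% in either direction). The share among the members was thus near that of the transcriptome. Klf13 reached the mean needed for testing through its I/R values, and with no filter on low values its limma adjusted p was 0.092. Klf5 was too low to be tested. All 3 I/R rats lay above all 3 sham rats for Klf6, Klf9 and Klf13, a pattern seen in 37.2% of all genes tested, and no member had all I/R rats below sham (13.0% of all genes). At an unadjusted p under 0.05 there were 3 members higher and 0 lower. Of the 9, 7 had a fold change above 0, and their median was 0.40.

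**Figure D1:**
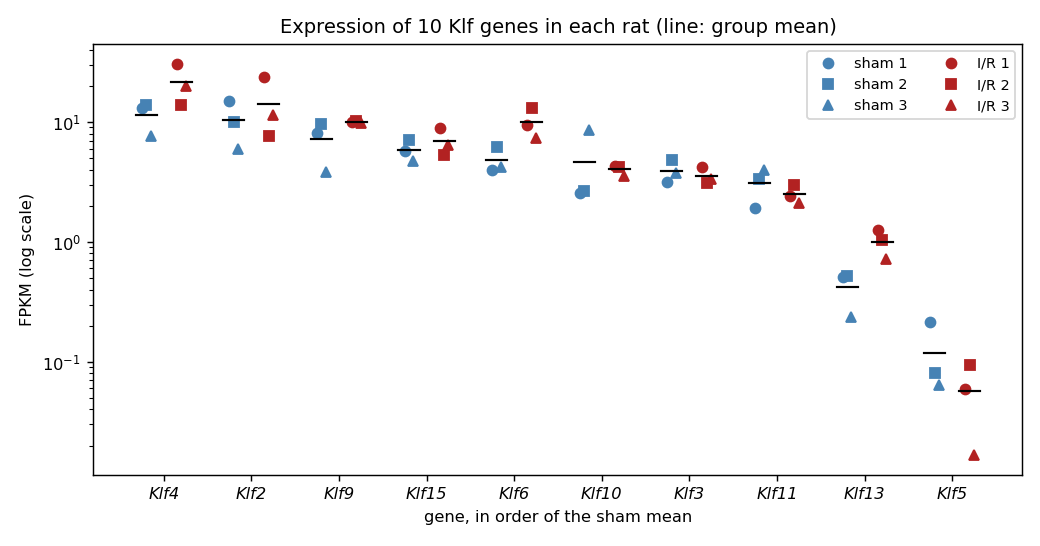
FPKM (log axis) of each Klf gene in each rat, in order of the sham mean. Blue marks sham, red marks I/R, marker shape gives the replicate number and the line is the group mean of 3 rats. For Klf6, Klf9 and Klf13 the red points lie wholly above the blue ones, and in Klf10 sham 3 lies apart at 8.63 FPKM.

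Klf6 is an injury-response member first known from promoter binding and from activated cells of wounded tissue. Its level was 4.0, 6.22 and 4.17 FPKM in sham 1, 2 and 3 and 9.46, 13.0 and 7.36 FPKM in I/R 1, 2 and 3. The lowest I/R rat lay above the highest sham rat. The means were 4.79 ± 1.24 and 9.94 ± 2.85 FPKM (SD, n = 3 each). The log2 fold change was 1.03 (SE 0.28, 95% interval 0.40 to 1.65, 2.04-fold, limma adjusted p = 0.02). The two-sided exact permutation p was 0.1, the smallest that 3 against 3 can give. The values rested on 995 to 3026 fragments per rat, so the spread between rats far exceeded counting error. Without sham 1, sham 3 or I/R 2 the adjusted p was 0.054, 0.074 and 0.074, and without any of the other 3 rats it stayed under 0.05. Rescaled without the mitochondrial mRNAs, the log2 fold change was 0.25 (limma adjusted p = 0.55), and after quantile normalization it was 0.56 (limma adjusted p = 0.12).

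Klf13, a member that acts mainly as a repressor through Sin3 and is also known from T cells and the developing heart, was a low gene. It had 0.51, 0.518 and 0.238 FPKM in sham and 1.25, 1.04 and 0.713 FPKM in I/R, that is 121, 145 and 64 fragments against 258, 230 and 149. The groups did not overlap. The means were 0.422 ± 0.16 and 0.999 ± 0.269 FPKM (SD, n = 3 each), so the gene reached the mean of 0.5 FPKM needed for testing through its I/R values. Its log2 fold change was 1.10 (SE 0.38, 95% interval 0.26 to 1.94, 2.14-fold, limma adjusted p = 0.048), and the exact permutation p was 0.1. This call was at the edge: leaving out any 1 of the 6 rats gave an adjusted p of 0.051 to 0.17, and rescaling without the mitochondrial mRNAs gave a log2 fold change of 0.43 (limma adjusted p = 0.45). After quantile normalization the log2 fold change was 1.06 (limma adjusted p = 0.044). With no filter on low values the limma adjusted p was 0.092, and at a pseudocount of 0.01 it was 0.053.

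Klf4, an endothelial and smooth muscle regulator also used in reprogramming, had the highest mean FPKM of the 10 in both groups, with the length behind Klf2, the next in order, in doubt. It stood at 13.2, 13.9 and 7.58 FPKM in sham and 30.7, 13.8 and 20.1 FPKM in I/R. The groups overlapped only in that I/R 2 lay just under sham 2. The log2 fold change was 0.87 (SE 0.34, 95% interval 0.11 to 1.63, 1.83-fold, limma adjusted p = 0.076), short of the threshold. With the replicate number as a block the limma adjusted p was 0.036, and 28.2% of all genes tested were then higher. On values rescaled to TPM it was 0.046, and without I/R 2 it was 0.04 at a log2 fold change of 1.15. Rescaled without the mitochondrial mRNAs, the log2 fold change was 0.09 (limma adjusted p = 0.83).

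Klf2, the flow-induced partner of Klf4 in endothelium, did not pass. Its values were 15.1, 9.91 and 5.94 FPKM in sham and 23.5, 7.66 and 11.5 FPKM in I/R, and the groups overlapped widely. The log2 fold change was 0.40 (SE 0.44, 95% interval -0.57 to 1.38, limma adjusted p = 0.50). The FPKM steps imply a gene model of 8498 bases for this row, against a RefSeq gene of 2633 bases from end to end, so the level of Klf2 per length is uncertain and may be set too low. The length itself cancels in a fold change. Whether the row also counts fragments from outside the RefSeq gene was not tested, and its fold change and ratios would hold them. The I/R rats stood in the same order for Klf2 and Klf4, and for both genes sham 3 was the lowest sham rat and I/R 1 the highest rat of all.

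Klf9 and Klf15 are both known targets of the glucocorticoid receptor. Klf9 was 8.12, 9.67 and 3.82 FPKM in sham and 9.97, 10.1 and 9.88 FPKM in I/R. The I/R rats were close together, all above sham, but by a narrow gap to sham 2. The log2 fold change was 0.57 (SE 0.33, 95% interval -0.16 to 1.30, limma adjusted p = 0.20), and the exact permutation p was 0.1. Klf15 was 5.74, 7.07 and 4.72 FPKM in sham and 8.84, 5.34 and 6.48 FPKM in I/R. These overlapped, with a log2 fold change of 0.22 (SE 0.26, 95% interval -0.36 to 0.80, limma adjusted p = 0.54).

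Klf10 and Klf11 are the TGF-beta-inducible early genes and repress through Sin3. Klf10 was 2.55, 2.68 and 8.63 FPKM in sham and 4.3, 4.22 and 3.53 FPKM in I/R. Sham 3 was thus over 3 times the other sham rats, which both lay under all I/R rats. The log2 fold change was 0.03 (SE 0.41, limma adjusted p = 0.96), and without sham 3 it was 0.59 (limma adjusted p = 0.14). Klf11 was 1.9, 3.35 and 3.97 FPKM in sham and 2.4, 2.97 and 2.1 FPKM in I/R, with sham 3 again the highest. Its log2 fold change was -0.25 (SE 0.29, 95% interval -0.90 to 0.41, limma adjusted p = 0.55). Rescaled without the mitochondrial mRNAs it was -1.01 (limma adjusted p = 0.049).

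Klf3, a repressor that works through CtBP, had 3.13, 4.83 and 3.73 FPKM in sham and 4.22, 3.1 and 3.37 FPKM in I/R. The groups overlapped and the log2 fold change was -0.12 (SE 0.24, 95% interval -0.66 to 0.42, limma adjusted p = 0.74). Rescaled without the mitochondrial mRNAs it was -0.88 (limma adjusted p = 0.04). Klf3 and Klf11 were the 2 members lower under that scaling, in which 26.1% of all genes tested were lower and 7.25% higher, and no member was higher. Klf5 stayed near the floor at 0.213, 0.0807 and 0.0645 FPKM in sham and 0.0588, 0.094 and 0.0166 FPKM in I/R. That is 29, 13 and 10 fragments against 7, 12 and 2. A difference was not detectable at this depth (exact permutation p = 0.4).

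**Figure D2:**
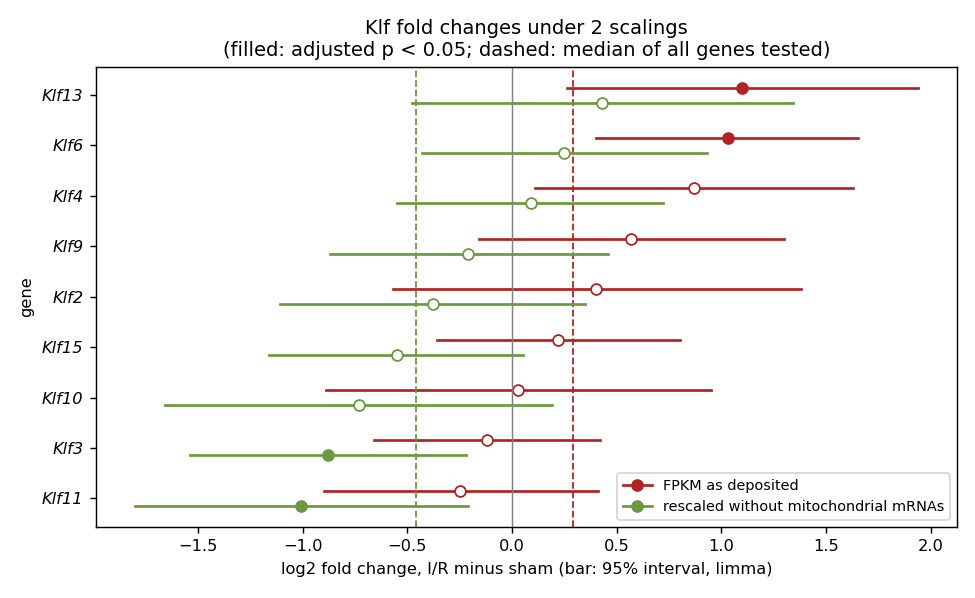
Log2 fold change (I/R minus sham) of the 9 tested Klf genes with its 95% interval from limma, for FPKM as deposited (red) and rescaled without the 13 mitochondrial mRNAs (green). Filled points have an adjusted p under 0.05 and dashed lines mark the median of all genes tested, at 0.29 and -0.46. The order of the genes is alike under both, while the whole set is shifted to the left in green.

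The rescaling without the mitochondrial mRNAs moves all genes by a like amount, so the place of each member among all genes hardly changes under it. As deposited, Klf13 lay 0.81 above the transcriptome's median on the log2 scale, Klf6 0.74 above and Klf4 0.58 above. Klf9 and Klf2 lay 0.28 and 0.11 above it. Klf11 and Klf3 were the farthest under it, at -0.54 and -0.41. Klf2, Klf9, Klf10 and Klf15 sat within 1 of their own SE of that median (SE 0.44, 0.33, 0.41 and 0.26). The median SE of all genes was 0.28. Quantile normalization does not move all genes alike. After it the distances were 1.08 for Klf13, 0.58 for Klf6, 0.17 for Klf4, 0.04 for Klf9 and -0.2 for Klf2. Klf11 and Klf3 then lay at -0.47 and -0.43. These distances carry no test.

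Levels were compared next, since FPKM is per length. The place of Klf2 rests on its uncertain length and may be too low. In sham the order of mean FPKM was Klf4, Klf2, Klf9, Klf15, Klf6, Klf10, Klf3, Klf11, Klf13 and Klf5. From Klf4 down to Klf11 the ranges of each neighbouring pair overlapped, whereas Klf13 lay apart from Klf11, and Klf5 apart from Klf13. In I/R the order was Klf4, Klf2, Klf9, Klf6, Klf15, Klf10, Klf3, Klf11, Klf13 and Klf5. There Klf15 and Klf10 no longer overlapped, and Klf11, Klf13 and Klf5 were each apart from the member above. Klf6 stood above Klf15 in I/R and below it in sham, but its range overlapped that of Klf15 in both.

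The 10 genes together summed to 54.5, 58.2 and 42.8 FPKM in sham and 94.8, 61.3 and 65.0 FPKM in I/R (means 51.8 ± 8.01 and 73.7 ± 18.3, SD, n = 3 each). The share of each member in that sum does not depend on how a library is scaled, but it does depend on the gene lengths used. Klf4 held 21.9% ± 3.66 in sham and 28.6% ± 5.29 in I/R, with overlapping groups. Klf13 held 0.937%, 0.889% and 0.555% in sham and 1.32%, 1.69% and 1.1% in I/R, larger in every I/R rat. Klf3 held 5.75%, 8.29% and 8.71% in sham and 4.45%, 5.05% and 5.19% in I/R. Klf15 held 10.5%, 12.1% and 11.0% in sham and 9.33%, 8.71% and 9.97% in I/R. With Klf2 counted at the length its FPKM implies, the shares of Klf3 and Klf15 were thus smaller in every I/R rat than in every sham rat. That length is uncertain and enters every share through the sum. Whether the groups stay apart at another Klf2 length was not tested. The share of Klf6 overlapped, at 9.25% ± 1.72 and 14.2% ± 6.11, and Klf10 took 20.1% in sham 3. Shares of 1 sum are tied to one another and were not tested.

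**Figure D3:**
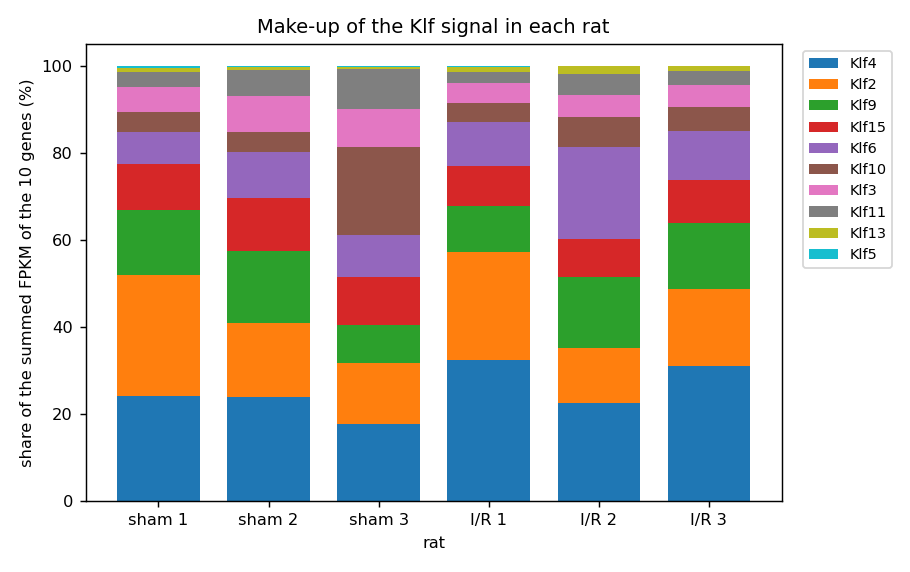
Stacked bars of the share (%) of each Klf gene in the summed FPKM of the 10 genes, 1 bar per rat. Klf4 and Klf2 make up the lower part of every bar, Klf10 widens to 20.1% in sham 3, and Klf3 and Klf15 are narrower in each I/R rat than in each sham rat. All shares rest on the uncertain length of Klf2 through the sum.

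Ratios within a rat were taken for 5 pairs of paralogs or members with opposed roles. Each of the 5 had an exact two-sided permutation p of at least 0.1, the smallest possible, and an adjusted p over the 5 pairs of 0.25 or more. The log2 ratio of Klf4 to Klf15 was 1.18, 0.96 and 0.67 in sham and 1.79, 1.36 and 1.62 in I/R. The ratio was higher in all I/R rats, with a mean difference of 0.65 (exact permutation p = 0.1, adjusted p = 0.25). Klf5 to Klf6, the pair with a near-silent member, was -3.71, -5.13 and -4.7 in sham and -5.91, -6.08 and -6.0 in I/R. It was lower in all I/R rats, by -1.48 (exact permutation p = 0.1, adjusted p = 0.25). Klf5 lay near the pseudocount of 0.1, so the size of this difference rests on that choice. It was -0.99 at a pseudocount of 1 and -2.04 at 0.01. Klf2 to Klf4 was 0.2, -0.48 and -0.35 in sham and -0.38, -0.85 and -0.8 in I/R, with overlap (difference -0.47, exact permutation p = 0.2, adjusted p = 0.25). Klf9 to Klf13 differed by -0.53 (exact permutation p = 0.2, adjusted p = 0.25) and Klf10 to Klf11 by 0.28 (exact permutation p = 0.6, adjusted p = 0.6), both with overlapping groups. The Klf9 to Klf13 difference also rests on the pseudocount. It was 0.01 at a pseudocount of 1 and -0.69 at 0.01 (exact permutation p = 0.1). After quantile normalization it was -1.04 (exact permutation p = 0.1).

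**Figure D4:**
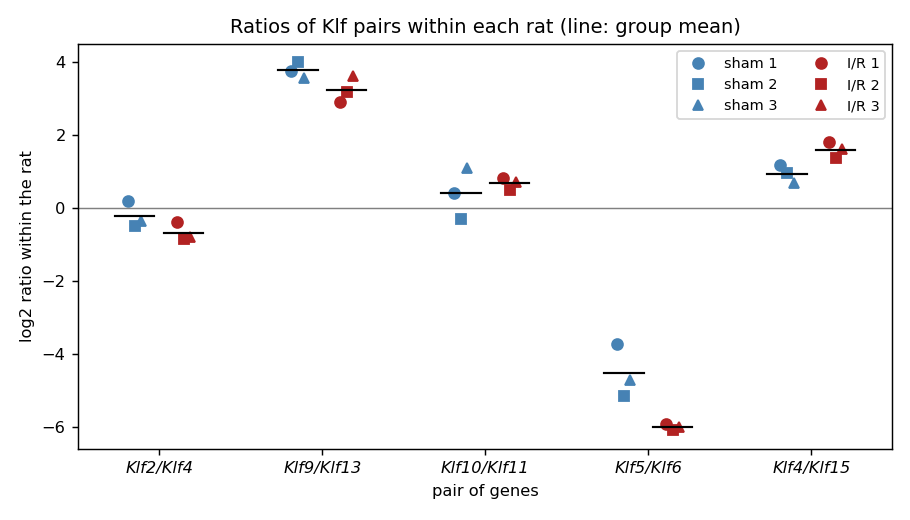
Log2 ratio of 2 Klf genes within each rat for 5 pairs, with sham in blue, I/R in red and the group mean as a line. Klf5/Klf6 and Klf4/Klf15 are the pairs in which the groups lie apart; in the other 3 pairs they overlap.

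The rats of a group were not alike across the family. Sham 3 was the lowest sham rat for Klf2, Klf4, Klf5, Klf9, Klf13 and Klf15 and the highest for Klf10 and Klf11. I/R 1 was the highest I/R rat for Klf2, Klf3, Klf4, Klf10, Klf13 and Klf15, and I/R 2 the highest for Klf5, Klf6, Klf9 and Klf11.

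Among 8583 genes with a mean of at least 1 FPKM, those whose course over the 6 rats was most like that of Klf13 were Pgs1, Alpk3 and Mideas, with a root mean square difference of 0.079, 0.105 and 0.105 on the log2 scale. For Klf6 they were Stard4, Ndel1 and Lrrc8d, at 0.047, 0.115 and 0.119. These are likenesses over 6 samples and carry no test.

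The relatives of the members were mostly low. Of 16 other Klf and Sp genes, 15 were in the table and 4 passed the filter (Klf16, Sp1, Sp2 and Sp3), while Klf17, Sp5, Sp7 and Sp9 were at 0 in all samples. The median log2 fold change of the 4 was 0.29, the same as over all genes tested, of which 25.5% were higher. Sp2 was the 1 that rose, from 1.41, 1.5 and 0.981 FPKM in sham to 3.55, 3.03 and 3.05 FPKM in I/R (log2 fold change 1.26, limma adjusted p = 0.0056). Sp3, which shares GC-box sites with Sp1, had the lowest log2 fold change of the list, -0.81 (limma adjusted p = 0.056, and 0.037 with the replicate block).

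Among 10 cofactors, 1 rose and none fell, while 25.5% of all genes tested were higher. The median log2 fold change of the cofactors was -0.07 against 0.29 for all genes. The 1 was Ctbp1, the corepressor of Klf3, at 16.5, 17.0 and 14.2 FPKM in sham and 34.8, 26.4 and 24.9 FPKM in I/R (log2 fold change 0.84, limma adjusted p = 0.021). Kat2a, an acetyltransferase, had the lowest log2 fold change, -0.64 (limma adjusted p = 0.072). Rescaled without the mitochondrial mRNAs, 5 of the 10 were lower and none higher, while 26.1% of all genes tested were lower.

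In 3 lists for pathways upstream of the members, which also hold other targets of those pathways, 1 gene per list rose and none fell. Over all genes tested, 25.5% were higher, with a median log2 fold change of 0.29. The median log2 fold changes were 0.35 for the ERK5, MEF2 and SRF list, 0.99 for the glucocorticoid list and 0.10 for the TGF-beta list. In the first, 7 of 8 genes were tested and Srf, the serum response factor, rose from 2.22, 2.66 and 2.09 FPKM to 12.0, 11.9 and 7.27 FPKM (log2 fold change 2.08, limma adjusted p = 0.0017). Srf was also higher without the mitochondrial mRNAs, with a log2 fold change of 1.32 (limma adjusted p = 0.0049). Map3k3, a kinase at the head of the ERK5 cascade, had the lowest log2 fold change of that list, -0.39 (limma adjusted p = 0.22). Of 5 glucocorticoid-responsive or receptor genes tested, Zbtb16 rose from 0.528, 2.24 and 1.01 FPKM to 3.56, 4.77 and 3.84 FPKM (log2 fold change 1.81, limma adjusted p = 0.01). The receptor itself, Nr3c1, had a log2 fold change of -0.25 (limma adjusted p = 0.53). Per1 and Sgk1, like Klf9, were low in sham 3 (3.34 and 4.28 FPKM) and did not pass (limma adjusted p = 0.051 and 0.10). With the replicate number as a block they did, at limma adjusted p = 0.011 and 0.023. Of 8 TGF-beta genes tested, the inhibitory Smad7 rose (log2 fold change 0.93, limma adjusted p = 0.016) and Tgfbr1, a receptor, had the lowest log2 fold change, -0.77 (limma adjusted p = 0.084).

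Known targets were read in the same way. The 3 endothelial genes that Klf2 and Klf4 raise did not pass (median log2 fold change 0.49): Nos3, the endothelial nitric oxide synthase, had a log2 fold change of 0.17 (limma adjusted p = 0.63), and S1pr1, the lipid receptor, one of 0.85 (limma adjusted p = 0.07, and 0.016 with the replicate block). Of the 4 genes held down by Klf2 and Klf4 that were read, 3 rose and none fell (median log2 fold change 2.70). Over all genes tested, 25.5% were higher and the median was 0.29. Sele, with means of 0.189 FPKM in sham and 2.63 FPKM in I/R, reached the level needed for testing through its I/R values. Ccl2, a monocyte chemokine, had a log2 fold change of 5.56, Sele, a leukocyte selectin, 3.28, and Vcam1, an adhesion molecule, 2.11 (limma adjusted p = 0.00072, 0.0011 and 0.007). Edn1, the endothelin precursor, had -0.24 (limma adjusted p = 0.60). The same 3 genes passed without the mitochondrial mRNAs. These are also general inflammatory genes, with inputs other than Klf2 and Klf4.

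Of the genes that Klf15 raises, 6 were tested, 4 rose and none fell (median log2 fold change 1.68). Over all genes tested, 25.5% were higher and the median log2 fold change was 0.29. Among the cardiomyocyte markers 5 of 6 were higher, with a median of 2.1, and Klf15 itself was at 0.22. The part of cardiomyocytes in these values was not tested. Acadm, a fatty acid dehydrogenase, had a log2 fold change of 2.40, Slc2a4, the insulin-sensitive glucose carrier, 2.17, Bcat2, which starts the breakdown of branched amino acids, 2.05, and Kcnip2, a potassium channel subunit, 1.30 (limma adjusted p = 0.0042, 0.0074, 0.0051 and 0.035). Slc27a1 had the lowest, -0.30 (limma adjusted p = 0.48). Cpt1b, which admits fatty acids to the mitochondrion, had 1.06 (limma adjusted p = 0.053, and 0.007 with the replicate block). Gpt was at 0 in all samples. Of the 3 genes that Klf15 holds down (median log2 fold change 1.04), Ccn2, a matrix-associated growth factor, rose (log2 fold change 1.04, limma adjusted p = 0.041). The natriuretic peptide genes Nppb and Nppa had log2 fold changes of 1.66 (limma adjusted p = 0.16, and 0.018 with the replicate block) and 0.21 (limma adjusted p = 0.89). For Nppb, I/R 3 (8.09 FPKM) lay under sham 1 and sham 2 (17.3 and 9.12 FPKM). Nppa was at 65.3 and 78.4 FPKM in sham 1 and I/R 1 and under 10 FPKM in the other 4 rats. Over the 9 lists, the 7 genes still higher without the mitochondrial mRNAs were Srf, Vcam1, Sele, Ccl2, Slc2a4, Bcat2 and Acadm, so the calls of Sp2, Ctbp1, Zbtb16, Smad7, Kcnip2 and Ccn2 did not pass under that scaling, and 11 other list genes were then lower.

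**Figure D5:**
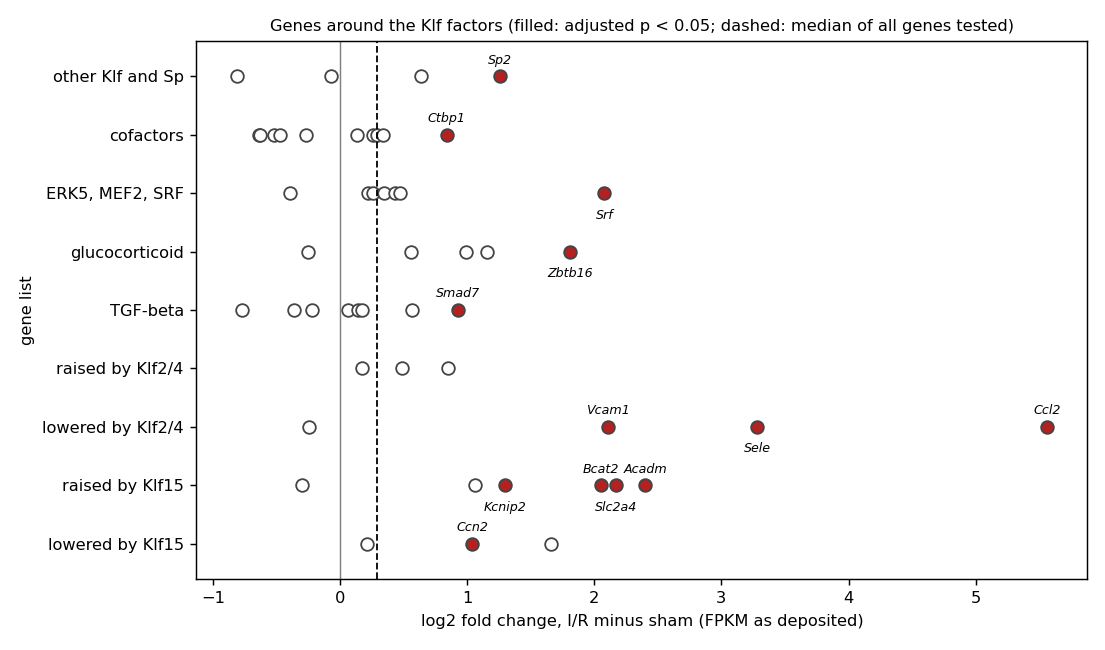
Log2 fold change (I/R minus sham) of the tested genes in 9 lists around the Klf factors, 1 point per gene, on FPKM as deposited. Filled, named points have an adjusted p under 0.05 and the dashed line is the median of all genes tested, 0.29. Ccl2 and Sele lie farthest to the right and no point is called lower.

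Cell type markers moved with the groups as well. Over all genes tested, 25.5% were higher and 7.36% lower as deposited, and 7.25% and 26.1% without the mitochondrial mRNAs. The cardiomyocyte list (6 of 7 genes in the table, none at 0) summed to 3220 to 10500 FPKM in sham and 21200 to 30400 FPKM in I/R, with 5 of 6 genes higher as deposited, and its course lies beside those of Klf6, Klf13 and the Klf15 targets. Neutrophil and monocyte markers (7 genes, none at 0) summed to 51.5 to 67.2 and 78.5 to 144.0 FPKM, with 3 of 5 tested genes higher. Fibroblast markers (7 genes, none at 0) summed to 420.0 to 581.0 and 605.0 to 669.0 FPKM, with 2 of 7 higher. Smooth muscle and pericyte markers (6 genes) summed to 85.2 to 277.0 and 141.0 to 335.0 FPKM, with 1 higher and 1 lower. Macrophage markers (6 genes) summed to 34.8 to 41.4 and 47.3 to 58.3 FPKM, with 1 higher and 2 lower. Lymphocyte markers (6 genes, 3 tested) summed to 8.27 to 11.7 and 3.05 to 7.71 FPKM, with 2 lower, and the 1 red blood cell marker in the table, Slc4a1, was neither higher nor lower. No marker of these lists was at 0 in all samples. Without the mitochondrial mRNAs, 4 cardiomyocyte markers were higher and none lower, 1 neutrophil and monocyte marker was higher and none lower, and 2 fibroblast markers were lower and none higher. The part of these cells in the Klf results was not tested. Endothelial markers (7 genes, none at 0), which lie beside Klf2 and Klf4, overlapped at 188.0 to 242.0 and 185.0 to 218.0 FPKM, with none of the 7 higher or lower as deposited. Without the mitochondrial mRNAs 4 of the 7 were lower, and after quantile normalization 6 were. When each sample was centred on the endothelial markers, the log2 fold changes of Klf6, Klf13 and Klf4 were 1.05, 1.12 and 0.89 (limma adjusted p = 0.012, 0.031 and 0.067). When each was centred on the cardiomyocyte markers instead, they were -1.19, -1.12 and -1.35 (limma adjusted p = 0.036, 0.16 and 0.0099). That scale put the transcriptome's median log2 fold change at -1.93. Centring adds the same amount to all genes of a sample, so it cannot change a gene's distance from that median. For Klf6, Klf13 and Klf4 the distances were therefore 0.74, 0.81 and 0.58, as for FPKM as deposited.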

How the data were processed

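The authors deposited 1 table of FPKM per gene for 3 sham and 3 I/R rats, made from a stranded total RNA library. STAR and HTSeq are listed in the submitters' processing notes. Versions, genome build and annotation are not given in the sources used here. Of 30452 rows, those with the same symbol were summed, and 7092 rows had no symbol. Genes with a mean of at least 0.5 FPKM were fitted as log2(FPKM + 0.1) with limma 3.58.1 in R 4.3.3 (trended prior), with Benjamini-Hochberg adjustment over 10942 genes and a threshold of 0.05. Fold changes on this scale understate the change of low genes. Single values were tested with two-sided exact permutation tests (scipy 1.17.1). Depth was taken from the FPKM steps: with a tolerance of 0.01, 99.7% of rows above 0 in all 6 samples gave whole fragments and 1 gene length. The fragments recovered made up 18.7% to 42.2% of the implied library totals. The fragments cover counting error only and served as weights for limma's voom in an alternative. In simulated data for this comparison, 181 of 200 genes changed by 2 on the log2 scale were recovered among 10942, with 14 false calls. The largest log2 fold change of a member was 1.1, for Klf13. In the rats, 32.9% of all genes tested were higher or lower. Recovery at that size, or with that share of genes called, was not tested.

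Same-numbered rats deviated together only weakly (r = 0.2, 0.12 and 0.12 across genes for numbers 1, 2 and 3). Rats with different numbers were not compared in this way, and no pairing of rats is stated. The number entered an alternative fit as a block, and the calls reported are those of the fit without it. The labels do not say what a number marks. Other alternatives changed the pseudocount, the filter, the scaling or the prior, or left out 1 rat. Besides the members, 9 lists of relatives, cofactors, genes of upstream pathways and targets and 8 lists of cell type markers were counted. The text names the highest, the lowest and the called genes of each of the 9. The most alike genes were taken for the called members with the largest and smallest fold change. Members and lists were chosen with earlier results of these data known. Sp8, Tsc22d3, Prodh and Pln, and Hba-a1, Hbb and Alas2 of the red blood cell list, were not analysed here, and 1 further gene of the list held down by Klf2 and Klf4 is not reported here.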

Additional observations from a re-analysis of the deposited data

How the results depend on the processing

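The counts of calls moved with the scale. Genes higher numbered 1441 with quantile normalization, 793 without the mitochondrial mRNAs and 36 centred on the cardiomyocyte markers, and genes lower numbered 166 (mean of at least 5 FPKM), 504 (TPM), 1554 (median centring), 1559 (quantile), 2857 (without mitochondrial mRNAs) and 8827 (cardiomyocyte centring), against 2790 and 805. Members higher numbered 1 at a pseudocount of 0.01, with no filter, at 5 FPKM, with median centring and with quantile normalization, and 0 without the mitochondrial mRNAs and with cardiomyocyte centring, where 2 and 8 were lower. List genes higher numbered 7 and 1 under those last 2 settings. List genes lower numbered 6 (median), 6 (quantile), 11 (without mitochondrial mRNAs), 39 (cardiomyocyte), 1 (replicate block) and 2 (voom weights), against 13 higher and 0 lower as reported. The cause of these shifts was not tested.

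Directions turned as follows on the log2 scale. Klf2 was -0.22 (quantile), -0.38 (without mitochondrial mRNAs) and -1.82 (cardiomyocyte). Klf3 was 0.08 with TPM. Cardiomyocyte centring gave -1.35 for Klf4, -1.19 for Klf6, -1.65 for Klf9, -2.19 for Klf10, -1.12 for Klf13 and -2.0 for Klf15. It moved the median of all genes to -1.93, and centring cannot change a member's distance from that median. Klf9 was -0.21 without the mitochondrial mRNAs. Klf10 was -0.003 (pseudocount 1), -0.22 (median), -0.34 (quantile) and -0.73 (without mitochondrial mRNAs), and Klf15 was -0.03, -0.24 and -0.55 under the last 3. The Klf9 to Klf13 ratio differed by 0.01 at a pseudocount of 1. The Klf5 to Klf6 ratio has no quantile value because Klf5 was not among the genes normalized.

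Leaving out 1 rat gave 1528 to 2557 genes higher and 309 to 881 lower, 0 to 1 members higher and 0 to 0 lower, and 9 to 16 list genes higher and 0 to 3 lower. The log2 fold change ranged from -0.04 to 0.77 for Klf2, -0.26 to 0.05 for Klf3 and -0.27 to 0.59 for Klf10. Pair differences ranged from -0.08 to 0.63 (Klf10/Klf11), -0.61 to -0.26 (Klf2/Klf4), 0.51 to 0.77 (Klf4/Klf15), -1.79 to -1.08 (Klf5/Klf6) and -0.72 to -0.37 (Klf9/Klf13).

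With the replicate block, 3085 genes and 18 list genes were higher, and among members the block changed the call of Klf4 alone, to an adjusted p of 0.036 in limma. The voom weights and the endothelial centring were added after seeing the data. Depth limits Klf5 most, with 2 to 29 fragments per rat.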

Other observations

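Clock genes were looked at after the spread of the sham rats in Klf9, Klf10 and Klf11 had been seen, since Klf9, Klf10 and Klf15 are known to cycle with the day, and the list was chosen for that reason. Of 12 clock genes tested, 3 rose in I/R and none fell on FPKM as deposited, near the 25.5% of all genes tested that were higher. Without the mitochondrial mRNAs 1 was higher and 3 were lower, the lower ones being Arntl (log2 fold change -2.09, limma adjusted p = 0.0091), Npas2 (-2.01, limma adjusted p = 0.024) and Per2 (-1.17, limma adjusted p = 0.0056). Ciart was 1.24, 0.212 and 0.662 FPKM in sham and 6.81, 3.39 and 5.69 FPKM in I/R (log2 fold change 2.93, limma adjusted p = 0.0037). Dbp was 6.7, 2.13 and 15.9 FPKM in sham and 49.2, 17.6 and 26.5 FPKM in I/R (log2 fold change 2.19, limma adjusted p = 0.024). Nr1d1, a repressor of the clock, was 1.7, 1.47 and 5.35 FPKM in sham and 8.8, 8.74 and 7.51 FPKM in I/R (log2 fold change 1.76, limma adjusted p = 0.012).

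The sham rats differed from one another in these genes. Arntl, the core activator, was 5.05 FPKM in sham 2 against 1.37 and 1.03 FPKM in sham 1 and 3, and Npas2 was 3.82 FPKM in sham 2 against 0.56 and 0.566 FPKM. Nr1d2 was 10.5 FPKM in sham 3 against 4.45 and 2.38 FPKM, and in the I/R rats it was 6.34, 7.45 and 7.14 FPKM. Sham 3, the rat with Klf10 at 8.63 FPKM, thus also had the highest Dbp, Nr1d1 and Nr1d2 of its group, and the highest Tef, Per3 and Cry2. Other genes of the list went otherwise. Ciart and Per2 were highest in sham 1, and Arntl, Npas2, Clock and Cry1 in sham 2. Per1, read in the glucocorticoid list, was lowest in sham 3. The cause of these differences was not tested.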
